A study of Homo sapiens with 24 samples.

Results

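The HOX genes of clusters A to D were followed in ACHN and HK2 cells after knockdown of the histone demethylase KDM5C, of the transcription factor YY1, or of both. The members are 38 listed HOX genes, found by symbol among the 60675 genes of the count tables: 10 of cluster A, 10 of cluster B, 9 of cluster C and 9 of cluster D. On GRCh38, as the count tables place the genes, cluster A spans chr7:27100354-27200106, cluster B chr17:48528526-48729178, cluster C chr12:53938765-54056030 and cluster D chr2:176092891-176190907. ACHN is a human renal cancer cell line, and HK2 is a line of human kidney proximal tubule epithelium. In each line total RNA was sequenced in 4 groups with 3 replicates each, 24 libraries in all: shNC with a control hairpin, shKDM5C with a hairpin against KDM5C, shYY1 with a hairpin against YY1, and the double-knockdown Dsh with hairpins against both. All groups carry a lentiviral hairpin under drug selection and grew in the same medium, and Dsh cells were made by infecting YY1-depleted cells with a KDM5C hairpin that also carries a green fluorescent marker. The hairpin behind each RNA group is not given in the sources used here, so each group stands for 1 stably infected line, and p-values measure the spread between 3 libraries that may be technical.

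HOX genes encode homeodomain transcription factors that give cells their position along the body axis. They lie in 4 clusters in the order in which they are used from head to tail, and genes at the same place in different clusters (paralog groups, numbered 1 to 13) are close relatives. Polycomb complexes keep the clusters silent, MLL complexes with histone H3 lysine 4 methylation keep them active, and YY1 is the mammalian relative of Pleiohomeotic, the fly protein that recruits Polycomb to HOX genes. KDM5C removes methyl groups from histone H3 lysine 4. In the kidney, genes of paralog group 11 are needed for the first branching of the ureteric bud, and adult kidney cells still use many HOX genes.

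KDM5C and YY1 were lower in each library of the groups that carry their hairpins. KDM5C fell by 0.73 on the log2 scale in ACHN shKDM5C and by 0.80 in ACHN Dsh, and by 1.74 and 1.49 in the HK2 groups. YY1 fell by 0.88 in ACHN shYY1, 0.51 in ACHN Dsh, 1.70 in HK2 shYY1 and 1.49 in HK2 Dsh. YY1 was thus reduced less in ACHN than in HK2, and it was at 90.4, 104 and 96.2 CPM (the count scaled to a common library size) in ACHN Dsh against 80.0, 73.0 and 77.4 CPM in ACHN shYY1. Library totals ranged from 15926561 to 24272298 counts. HK2 shKDM5C replicate 1 stood apart from its group: the SD over genes of its log2 ratios to the other replicates was 0.956 and 0.964, against 0.391 to 0.542 for all other replicate pairs, so the HOX calls and list counts that use it are also given without it, and without it KDM5C fell by 1.51 in HK2 shKDM5C. PAX8, KRT8, KRT18 and GGT1, genes of kidney epithelium and tubule, were read in every library (at least 158, 651, 161 and 69.5 CPM), while the proximal tubule markers LRP2, ANPEP, AQP1 and SLC34A1 stayed under 1 CPM in both lines and CUBN reached 1.16 CPM. CDH6, a cadherin of the tubule, ran from 437 to 1236 CPM in HK2 and reached 0.682 CPM in ACHN. Of the other genes of kidney epithelium, PAX2 ran from 4.69 to 89.5 CPM in ACHN and from 1.25 to 36.1 CPM in HK2. CDH1 ran from 3.93 to 49.8 CPM in ACHN and from 0.352 to 4.64 CPM in HK2, where its median was 0.957 CPM. Of the markers of blood, endothelium and fibroblasts, PTPRC, CDH5, COL3A1 and PDGFRA stayed under 1 CPM, PECAM1 reached 1.70 CPM, and COL1A1 ran from 47.9 to 604 CPM in ACHN and from 14.3 to 32.5 CPM in HK2.

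In control cells 32 of the 38 HOX genes had a mean of at least 1 CPM in ACHN and 29 in HK2, and the summed level was higher in ACHN. Summed over the 38 genes, the level per kilobase of exon (RPKM, which is CPM per kilobase) was 311 ± 4.81 in ACHN shNC and 171 ± 2.21 in HK2 shNC (SD, n = 3). HOXA9, a regulator of blood stem cells and leukaemia, was the highest HOX gene in both lines, at 75.7 ± 2.25 RPKM in ACHN and 30.2 ± 0.745 RPKM in HK2, above every library of the next gene. Its libraries read 224, 227 and 237 CPM in ACHN shNC and 93.9, 89.6 and 90.7 CPM in HK2 shNC, with the lines far apart. In ACHN it was followed by HOXA3 at 20.5 ± 0.750 and HOXA10 at 19.3 ± 0.826 RPKM, whose ranges overlap, and then by HOXA5 without overlap. In HK2 it was followed by HOXA5 at 22.5 ± 0.655, HOXA3 at 12.9 ± 0.274 and HOXA10 at 12.2 ± 0.337 RPKM, whose neighbouring ranges do not overlap. RPKM divides by all exon bases of a gene, but read pairs on bases shared with another gene were not assigned. HOXA5 shares no exon base, while 82.1% of those of HOXA3, 73.7% of HOXA10, 73.0% of HOXA9 and 37.5% of HOXA7 are unshared. The order of genes by RPKM was not corrected for this, so genes close in RPKM cannot be ranked firmly. Cluster A held 162 ± 4.19 RPKM of the ACHN sum and 99.2 ± 2.24 of the HK2 sum. HOXB1, the most anterior gene of cluster B, had 0 counts in all 6 control libraries and at most 1 count in any of the 24. HOXC12 had 0 counts in all 12 HK2 libraries and at most 8 in an ACHN library.

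**Figure D1:**
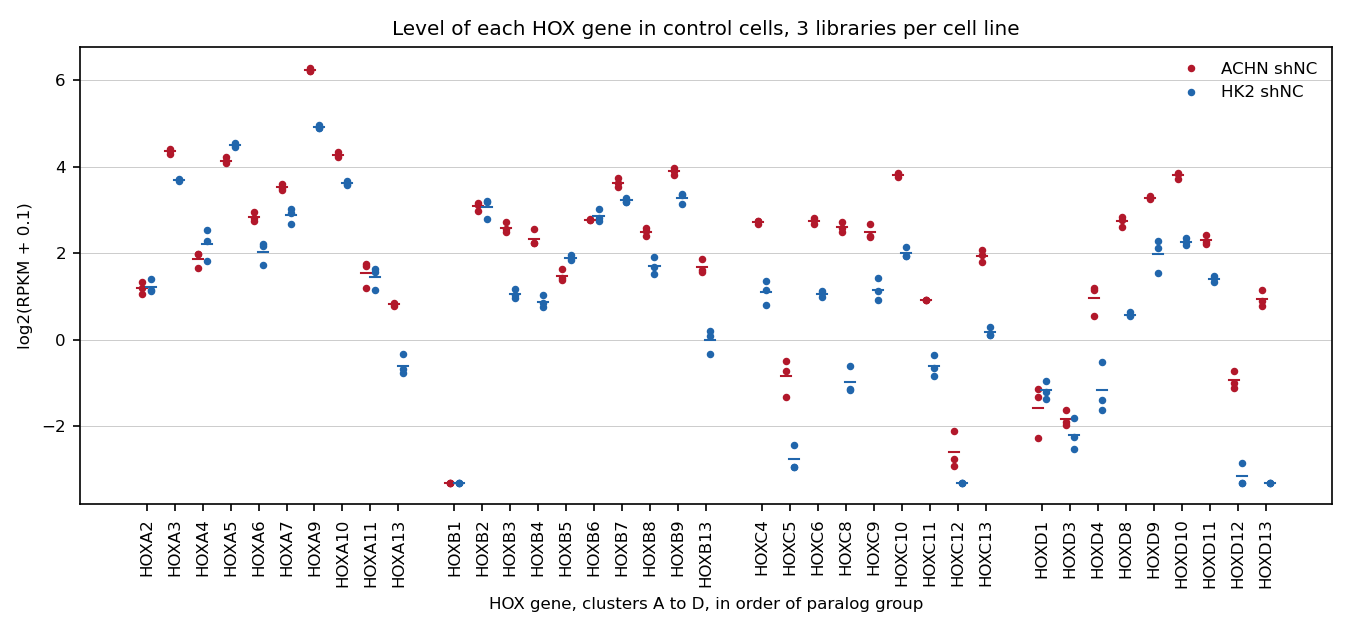
Level of each HOX gene in control cells as log2(RPKM + 0.1), with the genes of each cluster in order of paralog group on the x axis. Points are the 3 shNC libraries of ACHN (red) and of HK2 (blue) and bars are their means; the red points lie above the blue ones for all of cluster C, HOXA9 is the highest gene in both lines, and HOXD13 is at the bottom of the scale in HK2.

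Between the 2 control groups, 26 of 35 tested HOX genes were higher in ACHN and 3 were lower (edgeR's quasi-likelihood test, adjusted p under 0.05), against 38.6% and 38% of all 16988 genes tested. Of these, 15 differed by at least 1.5 on the log2 scale, against 21.3% of all genes. The median log2 difference was 1.29 for HOX genes and 0.02 for all genes. All 8 tested HOXC genes were higher in ACHN, with a median difference of 1.77. HOXC8, a thoracic gene, read 11.1, 12.4 and 10.4 CPM in ACHN shNC and 0.656, 1.05 and 0.669 CPM in HK2 shNC, a log2 difference of 3.82 ± 0.20, adjusted p = 8.28e-16. HOXD4, a gene of the hindbrain and neck region, read 3.09, 2.00 and 3.19 CPM in ACHN shNC and 0.328, 0.883 and 0.412 CPM in HK2 shNC (2.34 ± 0.35, adjusted p = 1.12e-06). The ranges of the lines did not overlap in either gene, and they were far apart for HOXC8 but closer for HOXD4. Only 19.5% of the exon bases of HOXD4 belong to no other gene. HOXD13, the gene of the digits and the urogenital outlet, had 75, 88 and 67 counts in ACHN shNC and none in any of the 12 HK2 libraries; against a floor of 3 counts over the 3 HK2 shNC libraries it was at least 76.3-fold higher in ACHN. The 3 genes lower in ACHN were HOXA4 (-0.38 ± 0.17), HOXA5 (-0.37 ± 0.07) and HOXB5 (-0.44 ± 0.15). The call of HOXA4 was lost without any one of ACHN shNC replicate 1 (-0.26, adjusted p = 0.22), ACHN shNC replicate 2 (-0.42, adjusted p = 0.068), ACHN shNC replicate 3 (-0.43, adjusted p = 0.051), HK2 shNC replicate 1 (-0.20, adjusted p = 0.28) or HK2 shNC replicate 2 (-0.36, adjusted p = 0.081).

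After knockdown HOX genes passed the test in both directions in every comparison but HK2 shKDM5C, in shares that mostly lay near those of all genes. In ACHN shKDM5C, 11 of 35 tested HOX genes fell and 10 rose, against 27.7% and 28.9% of all 16184 genes tested, with a median log2 fold change of -0.11 (all genes -0.01). In ACHN shYY1, 14 of 35 fell and 5 rose, against 24.5% and 24.2% of all genes (median -0.16, all genes -0.01). In ACHN Dsh, 13 of 36 fell and 14 rose, against 32% and 30.7% (median 0.03, all genes -0.01). In HK2 shKDM5C none of 32 passed the test in either direction, against 0.656% and 0.668% of all genes; 4 had an unadjusted p under 0.05, and DESeq2 called 1. In HK2 shYY1, 4 of 31 fell and 7 rose, against 14.7% and 14.3% (median 0.12, all genes 0.01). In HK2 Dsh, 7 of 31 fell and 8 rose, against 24.3% and 25.5% (median -0.03, all genes 0.00). The 3 comparisons of a line share its shNC libraries. A log2 fold change of at least 1.5 in addition, was passed by 0 HOX genes in ACHN shKDM5C, 2 in ACHN shYY1, 3 in ACHN Dsh, 0 in HK2 shKDM5C, 1 in HK2 shYY1 and 1 in HK2 Dsh, against 3.34%, 3.13%, 8.42%, 0.501%, 1.29% and 4.3% of all genes. In bulk RNA, fewer cells that use a gene and less RNA per cell cannot be told apart.

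**Figure D2:**
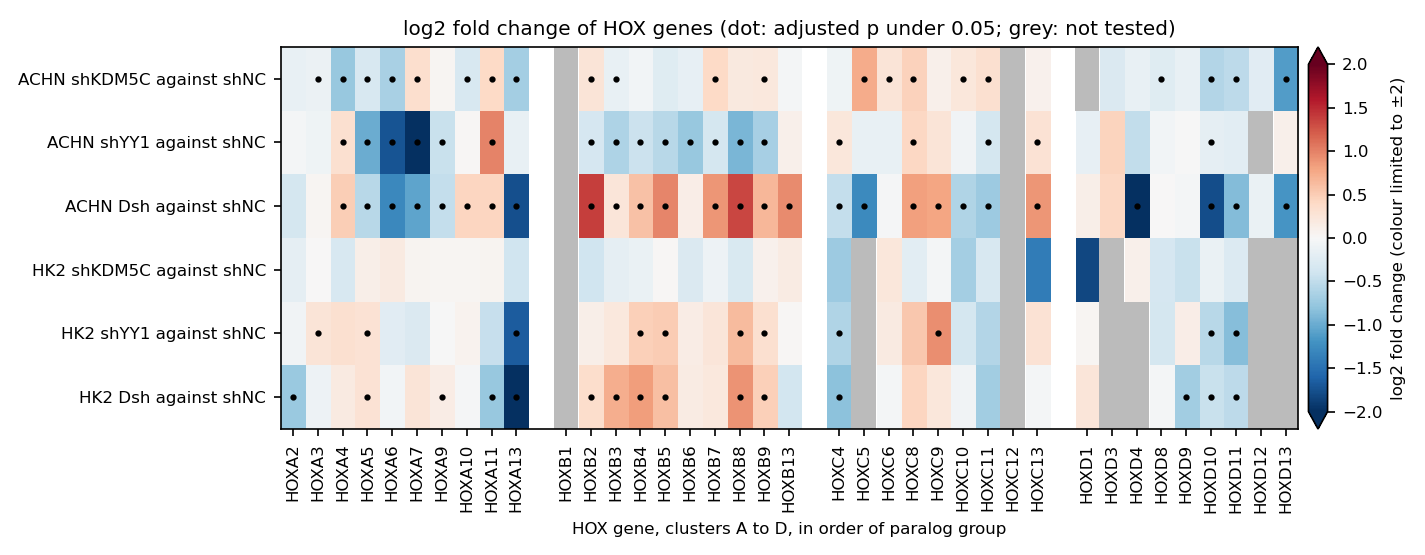
log2 fold change of each HOX gene against shNC in 6 comparisons (rows), with the genes of clusters A to D in order of paralog group (columns). Red is higher and blue lower in the knockdown, colours stop at 2 on either side, a dot marks an adjusted p under 0.05 and grey a gene that was not tested; HOXB2 to HOXB9 form a blue row in ACHN shYY1 and a mostly red row in ACHN Dsh, and HOXA5 to HOXA7 are blue in ACHN shYY1.

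The largest change of any HOX gene was that of HOXA7 in ACHN shYY1. HOXA7, which shapes the thoracic part of the axis, had 521, 491 and 540 counts in the 3 ACHN shNC libraries and 7, 8 and 6 in shYY1. In ACHN its level was 27.3, 26.5 and 29.2 CPM in shNC, 34.6, 37.3 and 33.6 CPM in shKDM5C, 0.374, 0.431 and 0.336 CPM in shYY1 and 13.0, 12.7 and 13.9 CPM in Dsh. The shYY1 libraries lay far below all others, Dsh lay between shYY1 and shNC, and shKDM5C lay above shNC, with no overlap between any of the 4 groups. The log2 fold change in shYY1 was -6.18 ± 0.16, adjusted p = 1.40e-26, and the counts of shNC exceeded those of shYY1 by a ratio of 72.7 after scaling, with a 95% interval of 47.4 to 118 that covers counting error only. In Dsh the fold change was -1.05 ± 0.08, adjusted p = 2.84e-09, so that Dsh cells had 34.9 times the HOXA7 of shYY1 cells (22.7 to 56.7), although both carry a YY1 hairpin. In HK2 its level was 19.4, 18.2 and 15.1 CPM in shNC, 7.76, 22.4 and 23.9 CPM in shKDM5C, 14.8, 14.5 and 13.8 CPM in shYY1 and 20.6, 20.8 and 21.4 CPM in Dsh. The 3 HK2 shYY1 libraries lay just below shNC and the 3 Dsh libraries just above it, while shKDM5C overlapped all of these, and neither shYY1 (-0.29 ± 0.12, adjusted p = 0.064) nor Dsh (0.25 ± 0.11, adjusted p = 0.051) passed the test.

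HOXA5 and HOXA6, the next genes along the chromosome, also fell in ACHN shYY1. HOXA6 read 8.44, 8.95 and 9.80 CPM in shNC, 5.36, 6.30 and 5.88 CPM in shKDM5C, 3.15, 3.02 and 2.13 CPM in shYY1 and 3.499, 3.599 and 3.87 CPM in Dsh. Each ACHN knockdown group lay below shNC, with shYY1 lowest and shKDM5C highest of the 3. Its log2 fold change was -1.73 ± 0.15, adjusted p = 1.38e-11 in shYY1, -1.30 ± 0.14 in Dsh and -0.65 ± 0.12 in shKDM5C. HK2 cells held HOXA6 at 5.63, 5.79 and 4.12 CPM in shNC, 5.61, 6.67 and 4.86 CPM in shKDM5C, 4.28, 5.30 and 3.75 CPM in shYY1 and 4.90, 5.17 and 4.93 CPM in Dsh, with overlapping groups and no call. HOXA5, a gene of lung and airway development, ran from 28.8 to 31.6 CPM in ACHN shNC and from 14.2 to 16.7 CPM in shYY1, and fell by 1.00 on the log2 scale in shYY1, 0.56 in Dsh and 0.32 in shKDM5C. In HK2 it went the other way, at 0.30 ± 0.07 in shYY1 (adjusted p = 0.0028) and 0.29 ± 0.07 in Dsh (adjusted p = 0.0011). The HOXA5 call in HK2 shYY1 was lost with all 4 HK2 groups in 1 fit (adjusted p = 0.091). Outside this block, HOXA9 fell by 0.44 and HOXA4 read 0.32 ± 0.13 (adjusted p = 0.045) in ACHN shYY1. HOXA11, a kidney gene of paralog group 11, rose in shYY1 (0.99 ± 0.13, adjusted p = 4.74e-08). The HOXA4 call was lost without ACHN shNC replicate 1 (0.22, adjusted p = 0.22) or ACHN shYY1 replicate 3 (0.20, adjusted p = 0.27).

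HOXA7 is counted beside an antisense gene. HOXA-AS3, transcribed from the other strand, covers most of its exon bases: 37.5% of the HOXA7 exon bases and 59.9% of those of HOXA6 belong to no other gene, and read pairs on shared bases were not assigned to either, since strand was not used. HOXA5 shares no exon base. HOXA-AS3 read 6.97, 6.31 and 5.52 CPM in shNC, 4.44, 5.79 and 5.44 CPM in shKDM5C, 1.39, 1.40 and 1.90 CPM in shYY1 and 2.06, 1.94 and 1.18 CPM in Dsh, with shYY1 and Dsh below shNC without overlap. Its log2 fold change was -2.02 ± 0.19 in shYY1 and -1.88 ± 0.21 in Dsh, so HOXA-AS3 was about as low in Dsh as in shYY1, while HOXA7 was 34.9 times higher in Dsh. Reads of the 2 genes cannot be told apart where they overlap. Across the 38 members, 15 share no exon base with another gene, and 5 (HOXA7, HOXC5, HOXD1, HOXD3 and HOXD4) hold under 50% of exon bases of their own.

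The 250 bases before the RefSeq start sites of HOXA7 (chr7:27156676-27156925, minus strand, GRCh38.p14) and HOXA6 (chr7:27147775-27148024, minus strand) are printed because these genes fell together in ACHN shYY1. They were searched on both strands for the core of the YY1 motif, CCATNTT and its reverse complement on the other strand, which neither window holds.
HOXA7: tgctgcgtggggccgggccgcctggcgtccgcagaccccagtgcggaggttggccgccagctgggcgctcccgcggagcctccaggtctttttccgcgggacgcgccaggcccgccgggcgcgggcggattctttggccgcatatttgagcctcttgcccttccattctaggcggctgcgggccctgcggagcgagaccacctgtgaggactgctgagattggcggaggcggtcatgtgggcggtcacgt
HOXA6: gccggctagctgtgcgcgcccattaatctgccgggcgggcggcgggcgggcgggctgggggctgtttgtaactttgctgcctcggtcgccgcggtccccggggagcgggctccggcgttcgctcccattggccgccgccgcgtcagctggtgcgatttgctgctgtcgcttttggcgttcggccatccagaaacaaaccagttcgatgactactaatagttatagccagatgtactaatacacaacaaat
Both windows lie inside their genes as the count tables draw them, whose longest transcripts start further upstream, at 27157936 for HOXA7 and 27150603 for HOXA6.

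**Figure D3:**
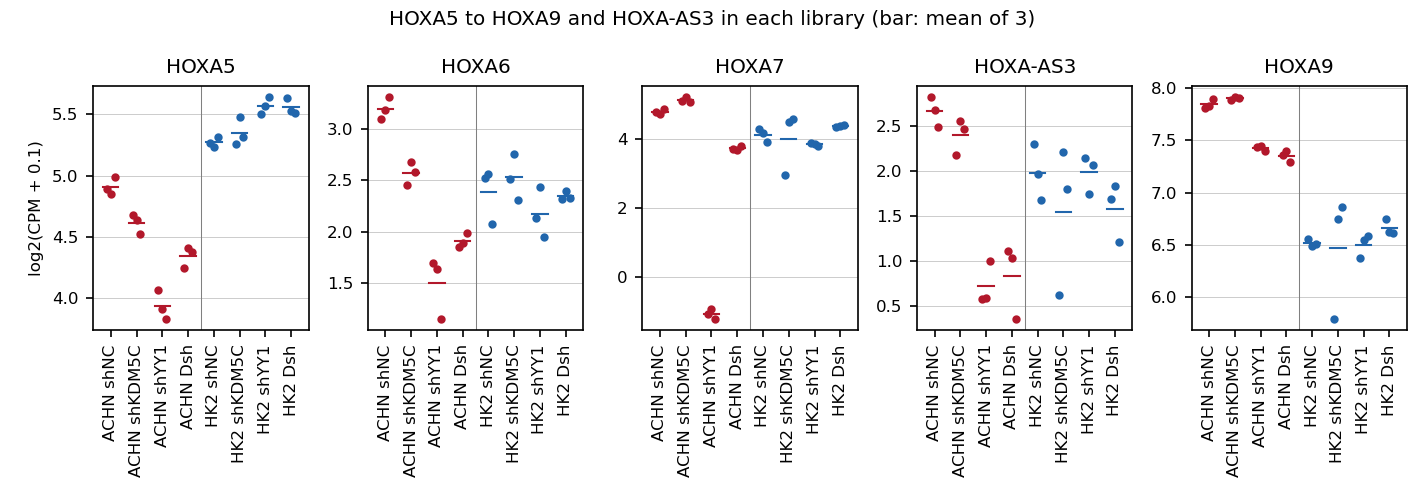
HOXA5, HOXA6, HOXA7, the antisense gene HOXA-AS3 and HOXA9 in each of the 24 libraries, as log2(CPM + 0.1), with 1 column per group, 3 points per column and a bar at their mean (ACHN red, HK2 blue; each panel has its own y axis). HOXA7 fell by 6.18 on the log2 scale in ACHN shYY1 and stood well above that in Dsh, and HK2 shKDM5C replicate 1 is the low point of its group for HOXA7, HOXA-AS3 and HOXA9.

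Most genes of cluster B fell in the shYY1 cells of ACHN and rose in its Dsh cells. In ACHN shYY1, 8 of the 9 tested HOXB genes fell and none rose, with a median log2 fold change of -0.56; in ACHN Dsh, 8 of 9 rose and none fell, with a median of 0.88. Over all genes 24.5% fell and 24.2% rose in ACHN shYY1, and 32% and 30.7% in ACHN Dsh, with medians of -0.01. The summed level of cluster B was 64.7 ± 0.245 RPKM in shNC, 72.1 ± 2.13 in shKDM5C, 46.1 ± 1.07 in shYY1 and 115 ± 1.25 in Dsh (SD, n = 3). In HK2 it was 45.9 ± 0.627 in shNC, 41.0 ± 11.1 in shKDM5C, 55.9 ± 3.59 in shYY1 and 61.4 ± 7.13 in Dsh. The ACHN groups did not overlap, with Dsh highest and shYY1 lowest; in HK2 the Dsh and shYY1 ranges overlapped and lay above shNC. The HK2 shKDM5C libraries read 28.2 in replicate 1, which stood apart, and 48.0 and 46.9 RPKM in the others.

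HOXB2, a hindbrain gene, read 18.3, 20.1 and 20.8 CPM in shNC, 23.9, 24.6 and 22.6 CPM in shKDM5C, 15.6, 15.9 and 16.2 CPM in shYY1 and 56.5, 49.8 and 47.8 CPM in Dsh. The Dsh libraries were the highest by far and the shYY1 libraries were the lowest, and no groups overlapped. The log2 fold change was 1.39 ± 0.08, adjusted p = 2.56e-11 in Dsh and -0.33 ± 0.08 in shYY1. HOXB8, which acts in thoracic patterning and in blood cells, read 10.7, 11.5 and 12.1 CPM in shNC, 14.1, 11.1 and 14.4 CPM in shKDM5C, 6.14, 5.60 and 6.66 CPM in shYY1 and 26.2, 29.7 and 30.1 CPM in Dsh. Dsh was again the highest and shYY1 the lowest group, while shNC and shKDM5C overlapped. HOXB8 rose by 1.34 ± 0.09 in Dsh (adjusted p = 2.74e-10) and fell by 0.92 in shYY1 (adjusted p = 2.35e-08). The other tested genes of the cluster rose by 0.24 (HOXB3) to 0.97 (HOXB5) in Dsh, apart from HOXB6, which read 0.14 ± 0.08 (adjusted p = 0.17). In shYY1 they fell by 0.36 (HOXB7) to 0.76 (HOXB6), apart from HOXB13, a prostate gene at the far end of the cluster, which read 0.10 ± 0.10 (adjusted p = 0.42). In ACHN shYY1 the ranges of HOXB2 to HOXB9 lay below those of shNC without overlap.

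In HK2 shYY1, 4 HOXB genes rose and none fell, and in HK2 Dsh 6 rose and none fell, against 14.3% and 25.5% of all genes that rose. HOXB2 read 16.0, 21.1 and 21.3 CPM in shNC, 3.39, 21.5 and 19.1 CPM in shKDM5C, 17.0, 23.3 and 23.0 CPM in shYY1 and 28.4, 28.0 and 18.03 CPM in Dsh, with overlapping groups and 1 very low library, shKDM5C replicate 1. HOXB8 read 7.49, 6.40 and 5.66 CPM in shNC, 2.54, 5.73 and 7.32 CPM in shKDM5C, 10.04, 10.9 and 9.36 CPM in shYY1 and 13.2, 13.0 and 10.4 CPM in Dsh, and both shYY1 and Dsh lay above shNC. HOXB8 rose by 0.63 ± 0.15 in shYY1 (adjusted p = 0.0028) and by 0.90 ± 0.15 in Dsh (adjusted p = 8.07e-06). HOXB4, a gene of blood stem cells, read 0.47 ± 0.15 and 0.84 ± 0.14, HOXB5 0.51 ± 0.13 and 0.60 ± 0.14, and HOXB9 0.31 ± 0.09 and 0.47 ± 0.09, all past the test. HOXB3 (0.72 ± 0.11) and HOXB2 (0.35 ± 0.13) passed it in Dsh. With all 4 HK2 groups in 1 fit, which holds shKDM5C replicate 1, no HOXB gene passed the test in shYY1 (adjusted p 0.15 to 0.40 for these 4), and HOXB2 and HOXB5 missed it in Dsh (0.62 and 0.077). The HOXB4 call in shYY1 was lost without HK2 shNC replicate 2 (0.40, adjusted p = 0.08), HK2 shNC replicate 3 (0.45, adjusted p = 0.062) or HK2 shYY1 replicate 1 (0.42, adjusted p = 0.072). The HOXB9 call in shYY1 was lost without HK2 shNC replicate 1 (0.24, adjusted p = 0.081). The HOXB2 call in Dsh was lost without HK2 shNC replicate 1 (0.22, adjusted p = 0.19), HK2 Dsh replicate 1 (0.24, adjusted p = 0.21) or HK2 Dsh replicate 2 (0.25, adjusted p = 0.18).

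**Figure D4:**
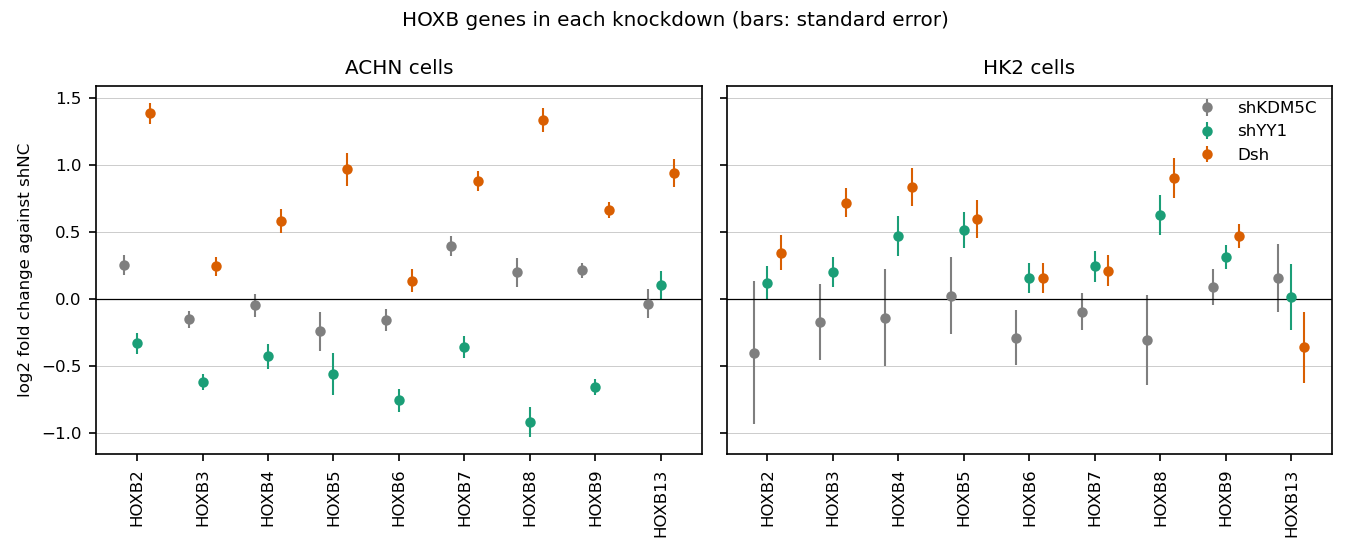
log2 fold change against shNC of the 9 tested HOXB genes in ACHN (left) and HK2 (right), with shKDM5C in grey, shYY1 in green and Dsh in orange; bars are standard errors from the edgeR fit. In ACHN the green points of HOXB2 to HOXB9 lie below 0 and the orange points above it, and in HK2 the green points of HOXB4, HOXB5, HOXB8 and HOXB9 lie above 0.

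In ACHN Dsh 4 of 9 tested HOXD genes fell (HOXD4, HOXD10, HOXD11 and HOXD13) and none rose, against 32% and 30.7% of all genes. HOXD10, a gene of the lower spine and limb, read 35.3, 38.0 and 39.0 CPM in shNC, 24.2, 26.8 and 24.5 CPM in shKDM5C, 34.6, 33.9 and 32.2 CPM in shYY1 and 8.59, 12.2 and 11.8 CPM in Dsh. Dsh lay far below the rest and shKDM5C between Dsh and shNC. HOXD10 fell by 1.77 in Dsh (SE 0.10, adjusted p = 3.40e-11) and by 0.59 in shKDM5C (adjusted p = 2.21e-08). Its fold change in ACHN shYY1 was -0.18 ± 0.06, adjusted p = 0.011, a call that was lost without ACHN shNC replicate 3 (-0.15, adjusted p = 0.057) or ACHN shYY1 replicate 3 (-0.15, adjusted p = 0.062). HK2 held HOXD10 at 12.03, 13.5 and 12.6 CPM in shNC, 8.93, 12.5 and 12.5 CPM in shKDM5C, 8.26, 8.48 and 9.30 CPM in shYY1 and 8.49, 9.86 and 9.75 CPM in Dsh. The shYY1 and Dsh libraries lay below all shNC libraries there, at -0.55 ± 0.13 (adjusted p = 0.0021) and -0.44 ± 0.13 (adjusted p = 0.0058).

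HOXA13, which patterns digits and the lower urinary tract, read 8.55, 8.63 and 8.23 CPM in shNC, 5.80, 5.00 and 5.17 CPM in shKDM5C, 7.20, 7.92 and 8.12 CPM in shYY1 and 2.62, 2.66 and 2.24 CPM in Dsh. Dsh was lowest, shKDM5C lay between Dsh and the rest, and shYY1 lay just below shNC. HOXA13 fell by 1.76 in Dsh (SE 0.15, adjusted p = 9.43e-09) and by 0.68 in shKDM5C (adjusted p = 4.76e-05), and read -0.15 ± 0.11 in shYY1 (adjusted p = 0.29). In HK2 it stood at 3.499, 2.65 and 2.47 CPM in shNC, 1.4999, 2.76 and 2.13 CPM in shKDM5C, 1.01, 0.765 and 0.924 CPM in shYY1 and 0.472, 0.235 and 0.340 CPM in Dsh. The order there was shNC, then shYY1, then Dsh without overlap, and counts were few, 8, 4 and 6 in Dsh. The log2 fold change was -1.67 ± 0.33, adjusted p = 4.51e-04 in HK2 shYY1 and -3.02 ± 0.41, adjusted p = 3.02e-07 in HK2 Dsh, the largest HOX change in HK2. HOXA13 was the HOX gene that passed the 1.5 threshold in each of these HK2 groups.

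HOXD4 read 3.09, 2.00 and 3.19 CPM in shNC, 2.33, 2.87 and 2.34 CPM in shKDM5C, 2.08, 1.78 and 2.13 CPM in shYY1 and 0.309, 0.277 and 0.530 CPM in Dsh. Only Dsh stood apart, with 6, 5 and 13 counts against 59, 37 and 59 in shNC, a log2 fold change of -2.82 ± 0.35, adjusted p = 9.99e-07. Just 19.5% of its exon bases belong to no other gene, and an unnamed gene on the same strand that shares them (ENSG00000278500) read -1.84 ± 0.55 in the same comparison (adjusted p = 0.0071). In HK2 HOXD4 had 2 to 16 counts a library and was tested in 1 of its knockdown comparisons, shKDM5C, where it read 0.10 ± 0.57, adjusted p = 0.94 (0.04 without replicate 1). HOXD13 read 3.93, 4.75 and 3.63 CPM in shNC, 2.55, 1.01 and 2.12 CPM in shKDM5C, 4.96, 3.61 and 4.87 CPM in shYY1 and 1.60, 2.16 and 1.67 CPM in Dsh. The shKDM5C and Dsh libraries were all below those of shNC and shYY1, at -1.12 ± 0.24, adjusted p = 2.49e-04 and -1.18 ± 0.21, adjusted p = 9.08e-05. HOXD11, a kidney gene of paralog group 11 that shares exon bases with HOXD10, fell in ACHN shKDM5C (-0.52 ± 0.11) and Dsh (-0.87 ± 0.14) and in HK2 shYY1 (-0.86 ± 0.21) and Dsh (-0.53 ± 0.20). Its call in HK2 Dsh was lost without HK2 shNC replicate 2 (-0.50, adjusted p = 0.08), HK2 shNC replicate 3 (-0.53, adjusted p = 0.068), HK2 Dsh replicate 1 (-0.52, adjusted p = 0.068) or HK2 Dsh replicate 2 (-0.40, adjusted p = 0.13). That call was also lost with all 4 HK2 groups in 1 fit (adjusted p = 0.089). HOXD8 and HOXD9, which lie between HOXD10 and HOXD4, read 0.01 ± 0.09 and -0.04 ± 0.09 in ACHN Dsh and did not pass the test.

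**Figure D5:**
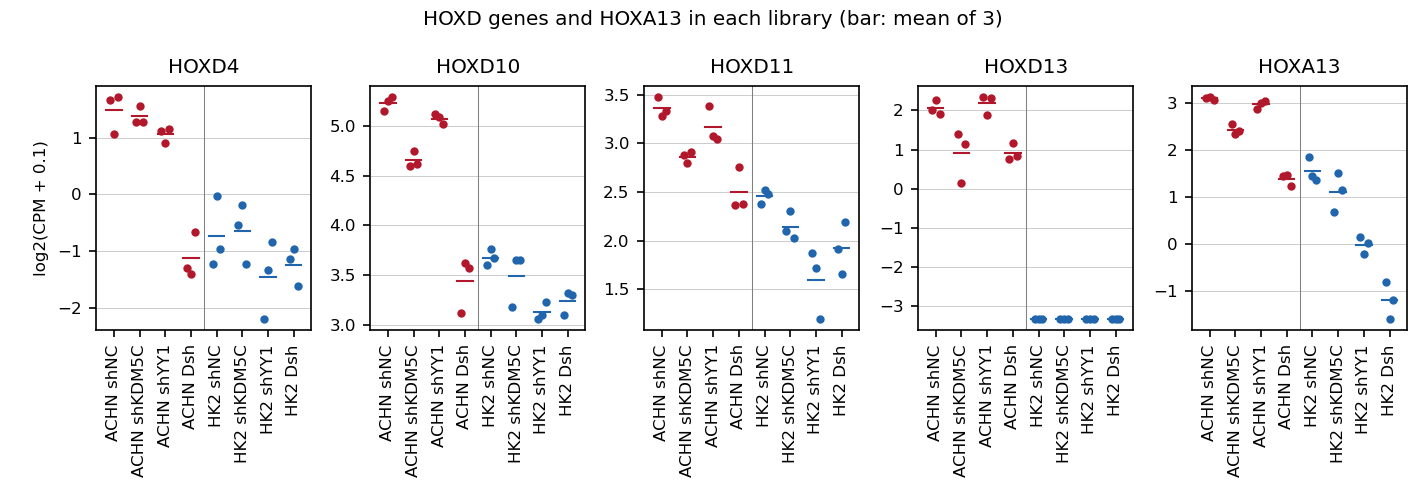
HOXD4, HOXD10, HOXD11, HOXD13 and HOXA13 in each of the 24 libraries, as log2(CPM + 0.1), with 1 column per group, 3 points per column and a bar at their mean (ACHN red, HK2 blue; each panel has its own y axis). The ACHN Dsh points are the lowest ACHN points of HOXD4, HOXD10, HOXD11 and HOXA13, the HOXD13 points of HK2 are all at 0 counts, and HOXA13 descends from shNC over shYY1 to Dsh in HK2.

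The 250 bases before the RefSeq start sites of the genes that fell most in Dsh are printed for HOXD10 (chr2:176116528-176116777, plus strand), HOXD4 (chr2:176151300-176151549, plus strand) and HOXA13 (chr7:27200092-27200341, minus strand), all on GRCh38.p14, with a match to the YY1 core in capitals.
HOXD10: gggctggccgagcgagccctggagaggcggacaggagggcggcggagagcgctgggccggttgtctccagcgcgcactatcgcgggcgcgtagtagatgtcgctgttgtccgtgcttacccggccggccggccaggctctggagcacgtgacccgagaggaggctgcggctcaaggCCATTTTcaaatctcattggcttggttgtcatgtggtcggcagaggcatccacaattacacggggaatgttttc
HOXD4: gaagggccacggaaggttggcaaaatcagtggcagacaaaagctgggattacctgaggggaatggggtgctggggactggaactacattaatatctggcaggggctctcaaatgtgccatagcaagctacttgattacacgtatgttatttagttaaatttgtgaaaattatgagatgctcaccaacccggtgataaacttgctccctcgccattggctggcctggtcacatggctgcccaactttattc
HOXA13: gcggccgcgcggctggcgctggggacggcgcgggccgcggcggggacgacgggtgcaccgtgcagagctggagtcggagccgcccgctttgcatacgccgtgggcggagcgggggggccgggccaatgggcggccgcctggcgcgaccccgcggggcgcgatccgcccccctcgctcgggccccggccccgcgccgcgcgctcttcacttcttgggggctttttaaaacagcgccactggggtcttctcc
The HOXD10 and HOXD4 windows lie inside their genes as counted, which start further upstream, at 176108790 for HOXD10 and 176151222 for HOXD4. HOXD10 holds 1 match that begins 74 bases before the start site, and the other windows hold none. By base composition they differ: 64.0% of the HOXD10 window, 47.6% of the HOXD4 window and 78.0% of the HOXA13 window is G or C, against a median of 58.0% over all windows. RefSeq windows were at hand for 20 of the 38 members (26 distinct windows). Of these 5 (19.2%) hold the core, against 11.6% of 34943 windows of the same length, and they belong to HOXD10, HOXD3, HOXA3 and the shared window of HOXC4 and HOXC5. Many of the member windows are alternative starts of a single gene, HOXA3, which holds more than 1 of the matches. In cluster B only HOXB1 has a window, so the HOXB genes that changed were not searched. A match is a run of letters and not a binding site.

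Cluster C was split in ACHN Dsh, where 4 of 8 tested genes fell and 3 rose, against 32% and 30.7% of all genes. HOXC10 (-0.61 ± 0.08), a hindlimb gene, HOXC11 (-0.73 ± 0.15) and HOXC4 (-0.48 ± 0.10) fell, as did HOXC5 (-1.27 ± 0.47, adjusted p = 0.024), which had 3 to 13 counts a library in Dsh. HOXC8 (0.83 ± 0.10), HOXC9 (0.78 ± 0.11) and HOXC13 (0.88 ± 0.10), a gene of hair and nails, rose. HOXC8 read 11.1, 12.4 and 10.4 CPM in shNC, 15.9, 15.8 and 15.2 CPM in shKDM5C, 15.2, 15.4 and 15.1 CPM in shYY1 and 17.96, 20.5 and 21.2 CPM in Dsh. Every knockdown group lay above shNC, and HOXC8 passed the test in shKDM5C (0.46 ± 0.09), shYY1 (0.41 ± 0.09) and Dsh. The HOXC5 call in Dsh was lost without ACHN shNC replicate 1 (-1.05, adjusted p = 0.13), ACHN shNC replicate 2 (-1.22, adjusted p = 0.078), ACHN Dsh replicate 1 (-1.19, adjusted p = 0.058) or ACHN Dsh replicate 2 (-0.97, adjusted p = 0.092). In HK2 HOXC8 read 0.656, 1.05 and 0.669 CPM in shNC, 0.717, 0.729 and 0.546 CPM in shKDM5C, 1.07, 0.942 and 1.44 CPM in shYY1 and 0.944, 1.29 and 0.964 CPM in Dsh, with overlapping groups. HOXC4 fell in HK2 shYY1 (-0.59 ± 0.21) and HK2 Dsh (-0.83 ± 0.22), and HOXC9 rose in HK2 shYY1 (0.92 ± 0.19). Both shYY1 calls were lost with all 4 HK2 groups in 1 fit (adjusted p = 0.19 for HOXC4 and 0.12 for HOXC9). The HOXC4 call in HK2 shYY1 was lost without HK2 shNC replicate 1 (-0.46, adjusted p = 0.19), HK2 shNC replicate 3 (-0.58, adjusted p = 0.096), HK2 shYY1 replicate 2 (-0.60, adjusted p = 0.06) or HK2 shYY1 replicate 3 (-0.44, adjusted p = 0.18).

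The genes of paralog group 11, which act in the early kidney, did not move together. HOXA11 read 7.50, 7.33 and 5.03 CPM in shNC, 9.48, 8.27 and 8.76 CPM in shKDM5C, 13.1, 15.3 and 11.6 CPM in shYY1 and 10.2, 7.03 and 9.21 CPM in Dsh, with shYY1 above all shNC libraries and without overlap. Besides its rise in shYY1 it passed the test in ACHN shKDM5C (0.40 ± 0.14) and Dsh (0.42 ± 0.16). The shKDM5C call was lost without ACHN shNC replicate 3 (0.24, adjusted p = 0.13) or ACHN shKDM5C replicate 1 (0.35, adjusted p = 0.06), and the Dsh call without ACHN shNC replicate 3 (0.26, adjusted p = 0.19), ACHN Dsh replicate 1 (0.32, adjusted p = 0.1) or ACHN Dsh replicate 3 (0.39, adjusted p = 0.086). In HK2 it read 4.92, 6.62 and 6.95 CPM in shNC, 3.13, 8.07 and 7.70 CPM in shKDM5C, 4.45, 3.89 and 5.08 CPM in shYY1 and 3.72, 3.40 and 3.86 CPM in Dsh. HK2 Dsh lay below shNC (-0.75 ± 0.20, adjusted p = 0.0019), a direction opposite to ACHN, and the difference between lines was 1.19 ± 0.26, adjusted p = 3.01e-04. With all 4 HK2 groups in 1 fit the HK2 Dsh call of HOXA11 was lost (adjusted p = 0.069). HOXC11 read 5.82, 5.82 and 5.85 CPM in shNC, 6.72, 7.87 and 7.46 CPM in shKDM5C, 4.002, 5.17 and 4.81 CPM in shYY1 and 3.55, 3.49 and 3.46 CPM in Dsh. Dsh was the lowest of these groups (-0.73 ± 0.15, adjusted p = 3.61e-04) and shKDM5C the highest. HOXD11 read 11.0, 9.60 and 9.96 CPM in shNC, 7.26, 6.86 and 7.40 CPM in shKDM5C, 10.4, 8.29 and 8.12 CPM in shYY1 and 5.04, 6.64 and 5.09 CPM in Dsh, with shKDM5C and Dsh below the other groups.

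The remaining members moved less or had few counts. HOXA2 (-0.75 ± 0.20) and HOXD9 (-0.69 ± 0.21) fell and HOXA9 (0.15 ± 0.05) rose in HK2 Dsh, and HOXA3 rose in HK2 shYY1 (0.26 ± 0.06). With all 4 HK2 groups in 1 fit, which holds shKDM5C replicate 1, each of these calls was lost (adjusted p = 0.055, 0.22, 0.65 and 0.66). The HOXD9 call was lost without HK2 shNC replicate 3 (-0.54, adjusted p = 0.073) or HK2 Dsh replicate 3 (-0.45, adjusted p = 0.07), and that of HOXA9 without HK2 shNC replicate 2 (0.13, adjusted p = 0.074), HK2 shNC replicate 3 (0.14, adjusted p = 0.085) or HK2 Dsh replicate 1 (0.10, adjusted p = 0.17). HOXA10 rose in ACHN Dsh (0.42 ± 0.05) and fell in ACHN shKDM5C. HOXB6 and HOXB7 passed no test in HK2, at 0.16 ± 0.11 and 0.21 ± 0.11 in Dsh. HOXD1, HOXD3 and HOXD12, with at most 30 counts in any library, passed none in the 6 knockdown comparisons. HOXB1 and HOXC12 were tested in none of them.

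Knockdown of KDM5C alone gave no HOX call past 1.5 in size. In ACHN shKDM5C, 6 of 10 HOXA genes fell and 2 rose, 5 of 8 tested HOXC genes rose and none fell, and 4 of 8 tested HOXD genes fell and none rose, against 27.7% lower and 28.9% higher over all genes. Some of these calls were lost with 1 library left out: HOXC11 (adjusted p 0.069 to 0.12) without any one of shNC replicates 1, 2 and 3 or shKDM5C replicates 2 and 3, and HOXC5 (0.070 to 0.21) without any one of shNC replicates 2 and 3 or shKDM5C replicates 1, 2 and 3. HOXA3 (0.058 to 0.13) was lost without shNC replicate 1 or 3 or shKDM5C replicate 1 or 2, and HOXD8 (0.083 to 0.22) without shNC replicate 1 or 3 or shKDM5C replicate 2. Besides HOXD13, HOXA13, HOXA6, HOXD10 and HOXD11, the genes that fell included HOXA4 (-0.76 ± 0.18, adjusted p = 8.14e-04) and HOXA10 (-0.32 ± 0.06), and those that rose included HOXA7 (0.33 ± 0.06, adjusted p = 8.95e-05), HOXB7 (0.40 ± 0.08) and HOXC6 (0.26 ± 0.07). HK2 shKDM5C gave 0 HOX calls with all its libraries. Without replicate 1, the library that stood apart, 3 of 32 fell and 5 rose, against 10.9% and 11.5% of all 16642 genes tested. HOXC13 (-1.38), HOXC4 (-0.67) and HOXC10 (-0.46) then fell, and HOXC6 (0.48), HOXA7 (0.39), HOXA3 (0.32), HOXA9 (0.28) and HOXA10 (0.23) rose.

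The interaction term asks whether Dsh differs from the sum of the single knockdown effects on the log2 scale. In ACHN it was positive for 17 of 36 tested HOX genes and negative for 8, against 26.8% and 28.8% of all 17228 genes tested, and 5 HOX genes passed 1.5 in size, against 10.2%. The median was 0.34 for HOX genes and 0.01 for all genes. All 9 tested HOXB genes had a positive term, from 0.82 ± 0.11 (HOXB7) to 2.03 ± 0.15 (HOXB8, adjusted p = 2.33e-11), with HOXB5 at 1.75 ± 0.19 and HOXB2 at 1.44 ± 0.11. HOXA7 had the largest term of the HOX genes (4.77 ± 0.19, adjusted p = 1.46e-16), and HOXA6 (1.05 ± 0.22) and HOXA5 (0.73 ± 0.11) were positive too. Among the negative terms were HOXD4 (-2.20 ± 0.40, adjusted p = 5.01e-05), HOXD10 (-1.03 ± 0.12, adjusted p = 1.11e-07), HOXA11 (-0.99 ± 0.21) and HOXA13 (-0.95 ± 0.19). HOXD13 did not pass the test, at -0.19 ± 0.34 (adjusted p = 0.66). YY1 itself had a positive term in ACHN (0.28 ± 0.07, adjusted p = 0.0013) and KDM5C a negative one (-0.42 ± 0.07, adjusted p = 6.48e-06); the part of these levels in the HOX terms was not tested.

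In HK2 the interaction passed the test for 1 of 31 HOX genes, positive for HOXC10 (0.96 ± 0.28, adjusted p = 0.048), and for none in the negative direction, against 5.21% and 4.4% of all 17093 genes and 2.1% past 1.5 in size. At an unadjusted p under 0.05 there were 3 HOX genes, HOXC10, HOXC13 and HOXD1, all with positive terms and none with a negative one. DESeq2 also called 1, HOXC10. The HOXC10 call was lost without any one of 10 of the 12 libraries, with adjusted p from 0.053 to 0.12. Without HK2 shKDM5C replicate 1, HOXC10 stayed positive (0.75, adjusted p = 0.0075) and 5 of 32 terms were negative, HOXC9 (-0.99), HOXA2 (-0.78), HOXC6 (-0.68), HOXA3 (-0.67) and HOXA10 (-0.32), against 15% positive and 13.7% negative of all 17642 genes. No HOXB gene was among them. HOXA7 in HK2 read 0.48 ± 0.39 (adjusted p = 0.48).

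The knockdown effects themselves were compared between the lines, as the ACHN effect minus the HK2 effect. For Dsh the difference was negative for 8 of 34 tested HOX genes and positive for 10, against 22.7% and 23.3% of all 18087 genes tested, and 1 passed 1.5 in size, against 8.88%. For shYY1, a comparison added after the results in each line were seen, it was negative for 14 of 35 and positive for 6, against 16.5% and 16.6% of all 18010 genes, and 4 passed 1.5 in size, against 4.42%. The shYY1 effect differed for 8 of the 9 tested HOXB genes, all more negative in ACHN, from -0.44 ± 0.16 (HOXB2) to -1.53 ± 0.19 (HOXB8, adjusted p = 1.62e-07), and for HOXA5 (-1.28 ± 0.10), HOXA6 (-1.49 ± 0.26) and HOXA7 (-5.88 ± 0.22, adjusted p = 2.65e-18). The call of HOXB2 was lost without any one of 8 libraries, with adjusted p from 0.057 to 0.13. HOXA13 fell more in HK2, with differences of 1.53 ± 0.28, adjusted p = 6.18e-05 for shYY1 and 1.28 ± 0.39, adjusted p = 0.0072 for Dsh. HOXD10 fell more in ACHN Dsh (-1.31 ± 0.16, adjusted p = 1.24e-07). The YY1 reduction was also smaller in ACHN, by 0.84 ± 0.07 for shYY1 and 0.99 ± 0.07 for Dsh; the part of that in the HOX differences was not tested.

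Genes that act with or on HOX proteins were read from lists, whose counts stand against the shares of all genes that fell and rose: 32% and 30.7% in ACHN Dsh, 24.5% and 24.2% in ACHN shYY1, 27.7% and 28.9% in ACHN shKDM5C, 24.3% and 25.5% in HK2 Dsh, 14.7% and 14.3% in HK2 shYY1 and 0.656% and 0.668% in HK2 shKDM5C, with medians of all genes from -0.01 to 0.01. Of 9 HOX cofactors (the PBX, MEIS and PKNOX genes, whose proteins bind DNA together with HOX proteins), 8 were tested in ACHN Dsh, where 6 fell and none rose with a median of -0.40 (all genes -0.01). PBX4 (-2.55 ± 0.49), MEIS2 (-0.53 ± 0.11), PBX2 (-0.52 ± 0.06) and PKNOX1 (-0.47 ± 0.08) fell most. In HK2 Dsh 1 of 7 fell and 3 rose, with a median of 0.29. In ACHN shYY1 2 of 8 fell and 3 rose. In HK2 shYY1 1 of 7 fell and none rose, in ACHN shKDM5C 3 of 8 fell and 1 rose, and in HK2 shKDM5C none passed the test (1 fell and 2 rose without replicate 1). Of 11 upstream regulators (CDX factors, retinoic acid receptors and CYP26 enzymes, CTCF and ZNF143), 6 were tested in ACHN Dsh, with a median of -0.19. CYP26A1 (-3.27 ± 0.61), which degrades retinoic acid, ZNF143 (-0.40 ± 0.11) and the insulator protein CTCF (-0.31 ± 0.05) fell, and the receptor RARA (0.43 ± 0.06) rose. CTCF also fell in HK2 Dsh (-0.57 ± 0.05), where 1 of 7 rose. In ACHN shYY1 1 fell and 2 rose, in ACHN shKDM5C 2 fell and 2 rose, in HK2 shYY1 none fell and 1 rose, and in HK2 shKDM5C none passed the test, with or without replicate 1.

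Of 23 core genes of the Polycomb and MLL complexes, 11 fell and 5 rose in ACHN shYY1, against 24.5% and 24.2% of all genes, with a median of -0.12, led by SUZ12 (-0.58 ± 0.04), RNF2 (-0.50 ± 0.06) and RING1 (-0.48 ± 0.05). In ACHN Dsh 6 fell and 7 rose, a share no larger than the 32% and 30.7% of all genes, with a median of 0.06, and with RING1 (-1.23 ± 0.07) and EZH2 (-0.87 ± 0.05), the Polycomb methyltransferase, falling and PHC2 (1.22 ± 0.06) and PCGF2 (0.73 ± 0.05) rising. In HK2 Dsh 7 fell and 8 rose, with PHC2 (1.08 ± 0.05) and CBX7 (1.01 ± 0.17) rising most. In ACHN shKDM5C 5 fell and 7 rose, in HK2 shYY1 4 fell and 4 rose, and in HK2 shKDM5C none passed the test (3 rose without replicate 1). Their part in the HOX levels was not tested.

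The clusters hold 54 further genes between their HOX genes, most of them noncoding. Of these 19 were tested in ACHN Dsh, where 9 fell and 5 rose, against 32% and 30.7% of all genes, with a median of -0.33 (all genes -0.01). HOTAIR, a long noncoding RNA of cluster C, read 8.97, 7.82 and 8.39 CPM in shNC, 6.28, 6.69 and 5.66 CPM in shKDM5C, 6.88, 6.41 and 7.22 CPM in shYY1 and 3.14, 4.04 and 3.46 CPM in Dsh, lowest in Dsh (-1.24 ± 0.15), and at most 0.294 CPM in HK2. HOXD-AS2, antisense in cluster D, fell in ACHN Dsh (-1.74 ± 0.16), and HOXA-AS2 fell in ACHN shKDM5C (-0.71 ± 0.06), ACHN Dsh (-0.85 ± 0.07) and HK2 Dsh (-0.68 ± 0.10). In cluster B, HOXB-AS3 fell in ACHN shYY1 (-0.71 ± 0.15) and rose in Dsh (0.32 ± 0.13), whereas HOXB-AS1 fell in both (-0.88 ± 0.17 and -0.88 ± 0.18). In ACHN shYY1 5 of 19 fell and 1 rose, in ACHN shKDM5C 4 of 21 fell and 1 rose, in HK2 Dsh 4 of 16 fell and none rose, in HK2 shYY1 1 of 18 rose, and in HK2 shKDM5C none of 16 passed the test (none of 17 without replicate 1).

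Of 15 listed coding neighbours, 12 were tested, all outside the clusters. PRAC1, on the list but not tested, lies inside the span of cluster B and is also among its further genes. In ACHN shYY1 3 fell and 4 rose (median -0.03), and in ACHN Dsh 6 fell and 6 rose (median -0.07), against 24.5% and 24.2% and then 32% and 30.7% of all genes. TTLL6, which lies beyond the HOXB13 end of cluster B, fell in ACHN shYY1 (-1.58 ± 0.12) and rose in ACHN Dsh (1.11 ± 0.08), with an interaction term of 2.96 ± 0.16. CBX1, on the other side of the cluster, fell in both (-0.25 ± 0.03 and -0.81 ± 0.05). In ACHN shKDM5C 7 neighbours fell and 4 rose, in HK2 Dsh 1 fell and 6 rose, in HK2 shYY1 1 fell and 1 rose, and in HK2 shKDM5C none passed the test (2 rose without replicate 1).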

How the data were processed

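Per the labels and the file headers, total RNA was sequenced as 150 bp read pairs, and the authors aligned them with HISAT2 2.0.5 and counted pairs per gene with featureCounts (2.0.1 in the headers, 1.5.0-p3 in the processing notes) on Ensembl release 84, GRCh38, without strand. The deposited values are raw counts, without normalization, 1 table per library. Pairs on exons of several genes were not assigned. Of 60675 genes, 41209 were given a symbol; the others hold 0.595% of the counts.

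The quasi-likelihood F test of edgeR 4.0.16, run under R 4.3.3 after TMM scaling and filterByExpr and adjusted by Benjamini-Hochberg over every gene tested, was applied between the 2 groups compared, with the 12 libraries of a line for the interaction and 12 libraries for the differences between lines. Standard errors came from the F statistic. CPM and RPKM used 1 set of TMM factors over 24 libraries and the exon lengths of the tables. The members and lists were chosen with earlier results of these data known. Every library was given for members with an adjusted p under 0.05, a log2 change of at least 1 and at least 1 CPM in the higher group of a knockdown comparison, for the highest gene per kilobase, and for members at 1 CPM or more in shNC of 1 line only; other genes were named up to 4 a list by size, and further members and list genes were named after their values were seen. Alternatives were DESeq2 1.42.0, its size factors, total counts, other filters, the replicate number as a block, all 4 groups in 1 fit, a log2 threshold of 1.5, and each library left out. The comparison of the shYY1 effect between lines and the fit of 4 groups without HK2 shKDM5C replicate 1 were added after the data were seen. The steps were tested on simulated counts. Intervals and floors cover counting error only. The values of 1 listed cofactor are not reported here.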

Additional observations from a re-analysis of the deposited data

Results flagged for a closer look

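The Dsh effect of 18 of 34 tested HOX genes differed between ACHN and HK2, by the test of the difference itself (edgeR's quasi-likelihood test over 12 libraries, adjusted p under 0.05). Of these differences 8 were negative and 10 positive, against 22.7% and 23.3% of all 18087 genes tested, so the shares lay near those of all genes. On the log2 scale, ACHN minus HK2, the difference was -0.83 for HOXA5, -1.23 for HOXA6, -1.29 for HOXA7, -0.61 for HOXA9, -0.46 for HOXB3, -0.51 for HOXC10, -1.31 for HOXD10 and -2.11 for HOXD4. It was 0.47 for HOXA10, 1.19 for HOXA11, 1.28 for HOXA13, 1.06 for HOXB2, 0.69 for HOXB7, 0.45 for HOXB8, 1.31 for HOXB13, 0.57 for HOXC9, 0.94 for HOXC13 and 0.67 for HOXD9. HOXD4 had 4 to 16 counts a library in the HK2 groups compared, and without HK2 Dsh replicate 2 its difference was -1.93 (adjusted p = 0.052). The calls of HOXB8, HOXC9 and HOXD9 were lost without at least 1 library each, with adjusted p from 0.05 to 0.18.

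The shYY1 effect of 20 of 35 tested HOX genes differed between the lines by the same test, a comparison added after the results in each line were seen. Of these differences 14 were negative and 6 positive, against 16.5% and 16.6% of all 18010 genes tested. The difference was -0.33 for HOXA3, -1.28 for HOXA5, -1.49 for HOXA6, -5.88 for HOXA7, -0.41 for HOXA9, -0.44 for HOXB2, -0.81 for HOXB3, -0.89 for HOXB4, -1.06 for HOXB5, -0.90 for HOXB6, -0.59 for HOXB7, -1.53 for HOXB8, -0.96 for HOXB9 and -0.65 for HOXC9. It was 1.47 for HOXA11, 1.53 for HOXA13, 0.84 for HOXC4, 2.52 for HOXD3, 0.39 for HOXD10 and 0.66 for HOXD11. HOXD3 had 0 to 20 counts a library in the groups compared. The calls of HOXB2, HOXC9, HOXD3 and HOXD11 were lost without at least 1 library each, with adjusted p from 0.052 to 0.13.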

How the results depend on the processing

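Of 186 member results past the threshold, none changed direction under any alternative run, 147 stayed past it in all alternatives run, and 39 missed it in at least 1, over 178 of 2735 values. With DESeq2, 3 HOX genes rose in ACHN shYY1 in place of 5, and 1 fell in HK2 shKDM5C. With all 4 groups in 1 fit, 1 HOX gene fell in HK2 shKDM5C, 0 rose in HK2 shYY1 in place of 7, and in HK2 Dsh 3 fell and 5 rose in place of 7 and 8. That fit holds HK2 shKDM5C replicate 1; without it, 2 fell and 5 rose in HK2 shKDM5C and the HK2 shYY1 and Dsh counts were within 1.5 times those of the 2-group fits. With total counts as the scaling, 7 fell in HK2 shYY1 in place of 4, 0 interaction terms were positive in HK2, and the summed level in HK2 shNC was 178.0 RPKM. A log2 threshold of 1.5 in addition left, lower and higher, 0 and 0 in ACHN shKDM5C, 2 and 0 in ACHN shYY1, 3 and 0 in ACHN Dsh, 1 and 0 in HK2 shYY1, 1 and 0 in HK2 Dsh, 2 and 3 in the ACHN interaction, 0 higher in the HK2 interaction, 1 and 0 for the Dsh difference between lines, 2 and 2 for the shYY1 difference, and 0 and 15 between the controls.

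With each library left out in turn, the higher count ran from 3 to 5 in ACHN shYY1 (3 without shYY1 replicate 3). In HK2 shKDM5C the lower count ran from 0 to 3 and the higher count from 0 to 5, both highest without shKDM5C replicate 1. In the HK2 interaction the negative count ran from 0 to 5 and the positive count from 0 to 1. With the replicate number as a block, 0 interaction terms were positive in HK2, and HOXC10 in the HK2 interaction (0.98, adjusted p = 0.065) and HOXC11 in ACHN shYY1 (-0.35, adjusted p = 0.05) missed the threshold. The block changed no other call. The HOXC11 call in ACHN shYY1 had an adjusted p of 0.0497 in the fit of 2 groups. It was also lost with DESeq2 (adjusted p = 0.13) and with all 4 ACHN groups in 1 fit (0.066). Leaving out any one of ACHN shNC replicates 1, 2 and 3 or ACHN shYY1 replicates 1 and 3 lost it too (0.070 to 0.23). The deviations of same-numbered libraries from their group means correlated at -0.0935 to 0.0386 over 18 pairs, 9 of which correlated best within their own number. The labels give only that number, and these low correlations cannot settle whether such libraries share anything else. HOX genes with at most 30 counts in any library (HOXB1, HOXC12, HOXD12, HOXD3, HOXD1, HOXC5) cannot be compared firmly at this depth.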
